A study of Arabidopsis thaliana with 12 samples.

Results

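The 10 classical light receptors of Arabidopsis thaliana are described here at the level of their transcripts. They are the phytochromes PHYA (AT1G09570), PHYB (AT2G18790), PHYC (AT5G35840), PHYD (AT4G16250) and PHYE (AT4G18130), the cryptochromes CRY1 (AT4G08920) and CRY2 (AT1G04400), the phototropins PHOT1 (AT3G45780) and PHOT2 (AT5G58140), and the ultraviolet-B receptor UVR8 (AT5G63860). They were taken by locus from a list of receptor names and are 10 of the 32399 genes in the deposited table. RNA was sequenced from 5-day-old seedlings that had grown at 22 °C in long days of 16 h light and 8 h dark, before they spent 12 h at either 29 °C or 22 °C, and were collected at zeitgeber time 12 h. The 4 groups of 3 libraries each were warm rve5-2 (29 °C), rve5-2 kept at 22 °C, warm wild type (WT, 29 °C) and WT kept at 22 °C, 12 libraries in all. Per the labels rve5-2 is a T-DNA mutant, that is a line with a DNA insertion, of the clock-related gene RVE5. The title places the line in a study of RVE5, CCA1 and the warmth-driven growth of the hypocotyl. Whether the replicates of a group grew as separate cultures is not stated, and the tests then speak only of the spread among these libraries.

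Plants read light through receptors, most of which bind a light-absorbing group. Phytochromes carry a bilin and switch between a red-absorbing inactive form and a far-red-absorbing active form, which enters the nucleus and acts on PIF transcription factors. PHYA is the light-labile phytochrome and PHYB the main light-stable one, and the active form of PHYB also reverts to the inactive form faster in warmth, so that it serves as a temperature sensor. Cryptochromes and phototropins bind flavins and absorb blue light. Cryptochromes restrain hypocotyl growth and set the clock and flowering, while phototropins are kinases that steer bending towards light, chloroplast movement and stomatal opening. UVR8 senses ultraviolet-B through its own tryptophans and switches on sunscreen genes with COP1 and HY5. Much of the regulation of these receptors lies in the protein, and transcripts are what was measured here.

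The bilin is bound to a cysteine that all the phytochromes share, and the bases around its codon show how alike the 5 coding sequences are at this site. Each stretch below is 63 bases of the coding strand from the RefSeq annotation of the TAIR10.1 genome, and the capitals mark the cysteine codon, which is codon 327 of PHYA, 357 of PHYB, 318 of PHYC, 360 of PHYD and 322 of PHYE in that annotation.
PHYA, chr1:3098218-3098280, minus strand: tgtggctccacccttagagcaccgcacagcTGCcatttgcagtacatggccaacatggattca
PHYB, chr2:8141117-8141179, plus strand: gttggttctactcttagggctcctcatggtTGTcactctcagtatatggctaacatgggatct
PHYC, chr5:14008970-14009032, plus strand: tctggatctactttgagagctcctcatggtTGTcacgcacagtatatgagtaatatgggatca
PHYD, chr4:9198377-9198439, minus strand: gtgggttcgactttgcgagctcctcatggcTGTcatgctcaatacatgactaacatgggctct
PHYE, chr4:10044953-10045015, minus strand: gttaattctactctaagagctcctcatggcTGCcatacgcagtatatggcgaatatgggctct
In this stretch PHYA shared 40 to 43 of 63 bases with each other phytochrome, while PHYB, PHYC, PHYD and PHYE shared 46 to 51 with one another. Over the whole coding sequence PHYB and PHYD were the closest pair, at 79.8% identical bases. The other 9 phytochrome pairs had 56.6 to 62.2%, CRY1 and CRY2 58.7%, and PHOT1 and PHOT2 60.9%. No run of 50 bases within the annotated exons of any of the 10 genes recurred elsewhere in the genome, on either strand. PHYE overlaps AT4G18120 (ML3), on the opposite strand, by 112 bases, and PHOT2 lies across AT5G58150, also on the opposite strand, by 2760 bases. AT5G58150 had a count of 0 in every library. The library kit does not mark the strand, so reads in the short shared stretch of PHYE cannot be told apart from those of ML3. The same holds for PHOT2 and AT5G58150, and whether reads of AT5G58150 were counted for PHOT2 was not tested.

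Promoters were read over 300 bases, from 250 before to 50 after the RefSeq gene start, for 3 elements on either strand. The evening element AAAATATCT, the class of site through which CCA1 and the REVEILLE factors are known to act, was in none of the 10 promoters and in 2.82% of 27443 promoters of the annotation. The CCA1-binding site AAAAATCT was in the UVR8 window, on the minus strand at base 11 after the start, and in 7.88% of all promoters. The G-box CACGTG, which bZIP and bHLH factors bind, was in 7.68% of all promoters, at 2 places in that of PHYB and 1 in that of PHYD, and is shown in capitals below. The windows are 80 bases long, and the elements begin at bases -146 and -111 from the gene start of PHYB and at base -75 from that of PHYD.
PHYB, chr2:8139586-8139665, plus strand: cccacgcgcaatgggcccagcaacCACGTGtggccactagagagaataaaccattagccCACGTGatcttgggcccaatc
PHYD, chr4:9199876-9199955, minus strand: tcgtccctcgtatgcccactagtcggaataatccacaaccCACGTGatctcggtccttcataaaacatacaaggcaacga
A match only describes these letters, and the 7 windows other than those of PHYB, PHYD and UVR8 held none of the 3 elements.

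The libraries held 65.9 to 89.1 M counts (M, 1e6). Low counts pile up at multiples of 3.78, so these totals may stand for 17.4 to 23.6 M fragments. RVE5 (AT4G01280) went against the label: it averaged 1329 ± 85.6 CPM (counts per 1e6 counts after TMM scaling) in the libraries labelled rve5-2 against 15.1 ± 1.66 CPM in WT at 29 °C, and 1011 ± 68.1 CPM against 14.9 ± 0.758 CPM at 22 °C (SD, n = 3 each). The log2 fold changes were 6.46 and 6.08 (edgeR, adjusted p = 6.16e-12 and 1.05e-11). The genotype directions below are therefore those of the libraries labelled rve5-2, in which this gene was higher and not lower. Tissue markers also moved with temperature. The summed level of 14 root markers was 67.9 to 81.2 CPM at 29 °C against 159 to 190 CPM at 22 °C in the libraries labelled rve5-2, and 60.5 to 81.7 CPM against 127 to 220 CPM in WT, with no marker at 0. Most of these markers are root hair genes (LRX1, PRP3, PRP1, XTH14, RHS18, RHS19, EXPA7, EXPA18 and COBL9), and the others are CASP1, MYB36, SHR, SCR and PLT1. Their median log2 fold change was -2.995 in the libraries labelled rve5-2 and -2.781 in WT. Root hair genes and the root as a whole were not scored apart. The sum of 8 green tissue markers was 55360 to 62560 CPM against 45250 to 49120 CPM in the libraries labelled rve5-2, and 46110 to 64740 CPM against 42930 to 47410 CPM in WT. A root score (log2 CPM averaged over these root genes) did not overlap between temperatures in either genotype, and replicate 1 of WT at 29 °C stood lowest at -0.75. Temperature and this score cannot be told apart in these groups, and in whole seedlings fewer cells of a type and less RNA per cell cannot be told apart either.

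All 10 receptor genes were expressed and passed the filter on low counts. Per length, in the authors' FPKM (fragments scaled by transcript length and by library), UVR8 ranked first, PHOT1 second and PHYD last in each of the 4 groups. In CPM, which is not divided by length, PHOT2 was the highest in each group, with means of 219.8 to 277.5 CPM. The RefSeq exons of PHOT2 hold 6092 runs of 50 bases against 2617 for PHOT1, at coding lengths of 2748 and 2991 bases. The place of PHOT2 in FPKM thus rests on the length used, which was not tested. The share of its count from the stretch shared with AT5G58150 was not tested either. UVR8 averaged 64.04 ± 1.87 FPKM in the warm libraries labelled rve5-2, 69.3 ± 3.11 in their 22 °C counterparts, 71.1 ± 3.08 in warm WT and 63.3 ± 2.10 in WT held at 22 °C (n = 3 each, SD). PHOT1 followed with 52.3 ± 5.40, 55.5 ± 6.98, 50.4 ± 2.38 and 46.0 ± 5.48 FPKM in these 4 groups, listed in the order just given, and its libraries did not overlap with those of UVR8 in any group. PHOT2, CRY2 and CRY1 formed the next tier, between 31.1 and 39.4 FPKM as group means, and changed places with one another. In WT at 22 °C PHOT2 and CRY2 overlapped, in WT at 29 °C CRY2 and CRY1 did, and in the libraries labelled rve5-2 PHOT2 overlapped with CRY1 at 29 °C and with both cryptochromes at 22 °C.

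The phytochromes lay below all blue light and ultraviolet-B receptors in every group. PHYA and PHYB had similar levels, at 15.3 ± 0.299 and 16.8 ± 0.943 FPKM in warm libraries labelled rve5-2 and at 18.01 ± 1.04 and 16.9 ± 0.142 FPKM in WT at 22 °C. PHYA ranked above PHYB in both groups at 22 °C and below it in both at 29 °C, and the libraries of the pair overlapped in 3 of the 4 groups, the exception being the libraries labelled rve5-2 at 29 °C. PHYC came next, at 9.18 to 10.5 FPKM as group means, and PHYE after it, at 7.94 to 9.58 FPKM. These neighbours overlapped at 22 °C in the libraries labelled rve5-2 and in WT at 29 °C. PHYD had 4.21 ± 0.496, 4.95 ± 0.0621, 4.42 ± 0.203 and 5.39 ± 0.59 FPKM in warm and 22 °C libraries labelled rve5-2 and in warm and 22 °C WT, listed in that order. Against all 21870 tested genes in WT at 22 °C, UVR8 stood at percentile 91.2 and PHYD at percentile 39.1.

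**Figure D1:**
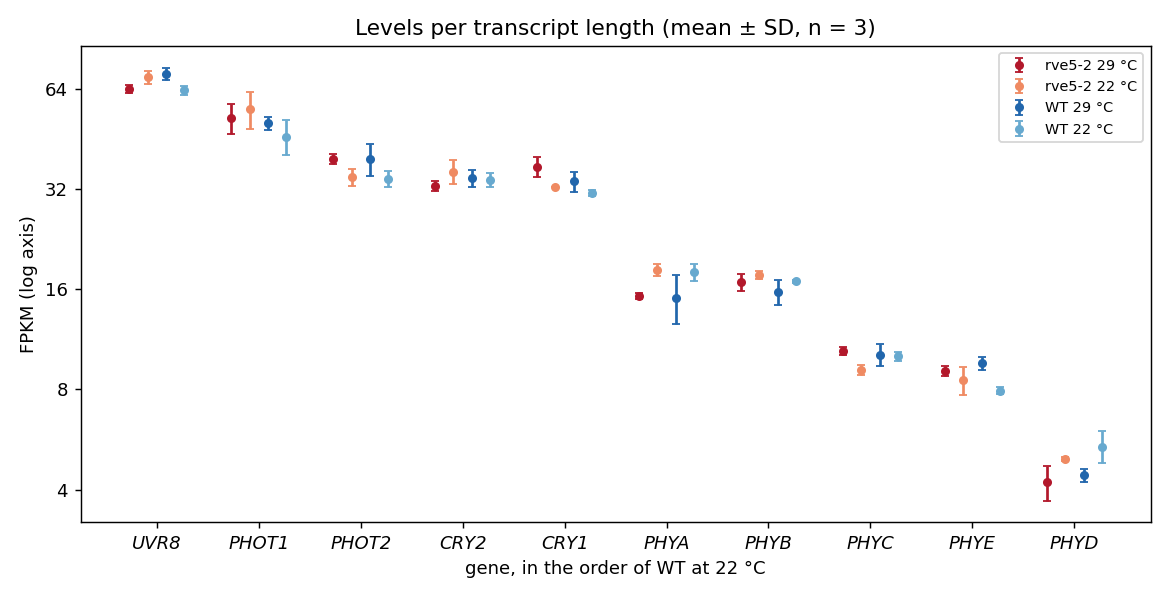
Level of each receptor gene per transcript length, in FPKM on a log axis, as the mean ± SD of 3 libraries in each of the 4 groups, with genes in the order of WT at 22 °C. UVR8, PHOT1 and PHYD keep their places in all groups, while PHOT2, CRY2 and CRY1 change places within 31.1 to 39.4 FPKM.

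Single receptor transcripts differed between temperatures by small amounts. At 29 °C against 22 °C, edgeR's quasi-likelihood test with Benjamini-Hochberg adjustment over all tested genes called 2 of the 10 genes in the libraries labelled rve5-2, PHYC and CRY1, and 1 in WT, PHYE, all higher at 29 °C. Called here means an adjusted p under 0.05. Of all tested genes, 26% were called in the libraries labelled rve5-2 (13% higher and 13% lower) and 15.5% in WT (8.08% higher and 7.41% lower). In limma on log2(FPKM + 1), the split over all tested genes was 1949 higher and 3923 lower in the libraries labelled rve5-2, beside 2848 and 2848 by edgeR, and 1469 and 2110 in WT, beside 1767 and 1620. The median log2 fold change of the 10 genes was 0.018 in the libraries labelled rve5-2 and 0.116 in WT, beside -0.005 and 0.002 over all tested genes. Libraries did not overlap between temperatures for 4 receptor genes in the libraries labelled rve5-2 and 5 in WT, while 45.6% and 36.3% of all tested genes were so separated. Averaged over both genotypes, a contrast added after the data were seen, 6 of the 10 were called: PHYC, PHYE, CRY1 and PHOT2 higher and PHYA and PHYD lower at 29 °C, against 38.6% of all tested genes (19.1% higher and 19.5% lower). The 95% intervals of the 20 values within genotypes ran between -0.447 and 0.516 on the log2 scale. Over the 12 libraries the highest value of a receptor gene was 1.27 (PHYB) to 1.64 (PHOT1) times its lowest. The range of the 4 group means had a median of 0.288 on the log2 scale over the 10 genes, beside 0.283 over the 12365 tested genes with a mean of at least 10 CPM. With the root score as a covariate, none of the 10 was called for temperature, in a fit that called 89 of all tested genes in the libraries labelled rve5-2, 28 in WT and 64 averaged.

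**Figure D2:**
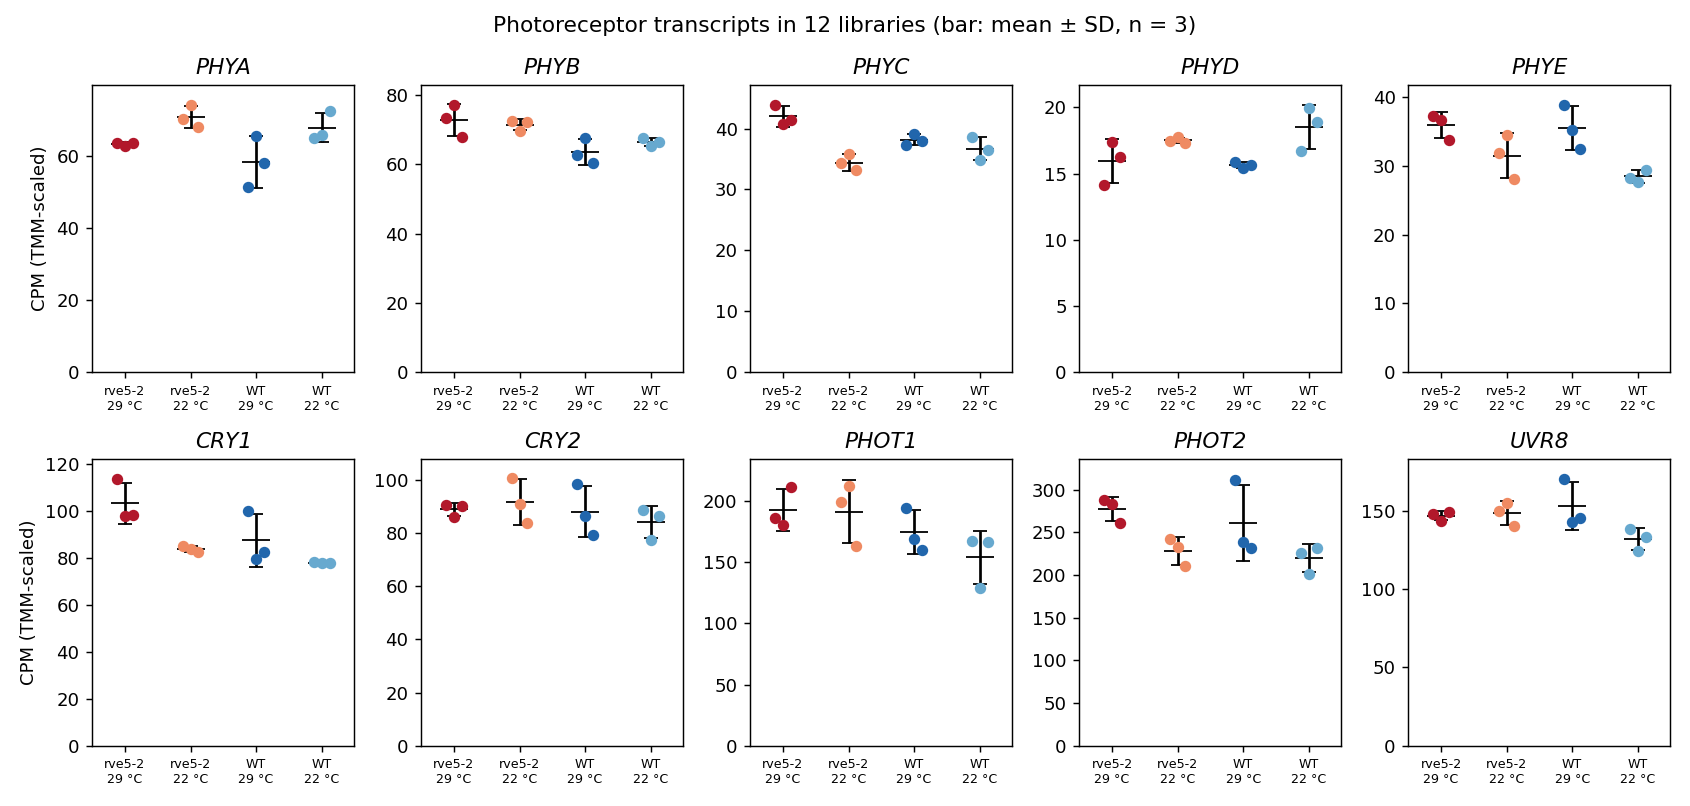
Level of each receptor gene in CPM (TMM-scaled) in every library, 3 points per group with the mean ± SD, each axis starting at 0. PHYC at 29 °C in the libraries labelled rve5-2 lies between 40.7 and 44.0 CPM, above all other groups, and replicate 1 of WT at 29 °C, the left point of its group, is the highest of its group in 7 of the 10 genes.

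PHYA, the receptor of far-red and very weak light, was lower at 29 °C. It had 63.7, 62.8 and 63.6 CPM at 29 °C against 70.4, 74.1 and 68.1 CPM at 22 °C in the libraries labelled rve5-2, and 51.3, 65.6 and 58.1 CPM against 65.04, 65.9 and 72.5 CPM in WT. All 3 warm libraries labelled rve5-2 lay below those at 22 °C, while in WT replicate 2 at 29 °C fell among those at 22 °C. The averaged log2 fold change was -0.19 (SE 0.060, adjusted p = 0.025). Within genotypes it was -0.16 (SE 0.084, adjusted p = 0.182) in libraries labelled rve5-2 and -0.22 (SE 0.084, adjusted p = 0.0993) in WT, neither of them called. The averaged call was lost in 4 of 12 fits that left out 1 library, without WT at 22 °C replicate 3 (adjusted p = 0.0654), rve5-2 at 22 °C replicates 1 (0.0567) and 2 (0.0588), and rve5-2 at 29 °C replicate 2 (0.0524). Without WT at 29 °C replicate 2, PHYA was called in WT, at a log2 fold change of -0.31 (adjusted p = 0.0302).

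PHYB, the main red light and temperature sensor, did not pass the test for temperature, with 73.4, 77.0 and 67.8 CPM at 29 °C against 72.5, 69.6 and 72.3 CPM at 22 °C in the libraries labelled rve5-2. WT had 62.8, 67.7 and 60.4 CPM at 29 °C against 67.6, 65.2 and 66.5 CPM at 22 °C. The temperatures overlapped in both genotypes, and the averaged log2 fold change was -0.018 with a 95% interval of -0.12 to 0.084. By genotype, each of the 6 libraries labelled rve5-2 lay above the WT libraries of the same temperature, and the lowest of them, 67.8 CPM, was also above the highest in WT, 67.7 CPM. PHYB was the 1 receptor gene whose genotypes did not overlap over both temperatures, beside 0.4% of all tested genes so separated in either direction. Its genotype difference was 0.15 on the log2 scale over both temperatures (SE 0.047, unadjusted p = 0.00776, adjusted p = 0.268) and was not called. At 29 °C it was 0.19 (SE 0.066, adjusted p = 0.38) and at 22 °C 0.11 (SE 0.066, adjusted p = 0.87).

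PHYC, a light-stable phytochrome that works in pairs with other phytochromes, was higher at 29 °C in the libraries labelled rve5-2. It had 44.0, 40.7 and 41.4 CPM at 29 °C against 34.3, 35.8 and 33.1 CPM at 22 °C, with no overlap. This is a log2 fold change of 0.29 (SE 0.065, adjusted p = 0.00729), or 1.22-fold, and the call was kept in all 12 fits that left out 1 library. In WT the values were 37.4, 39.2 and 37.9 CPM against 38.7, 34.9 and 36.5 CPM, and the temperatures overlapped (log2 fold change 0.057, SE 0.065, adjusted p = 0.588). The difference between these responses, 0.23 on the log2 scale (95% interval 0.033 to 0.431), had an unadjusted p of 0.0258 and an adjusted p of 0.981, so a genotype effect on the response of PHYC was not called. On the authors' FPKM, limma gave 0.17 in the libraries labelled rve5-2 at a pseudocount of 1 (adjusted p = 0.122), and the averaged call, 0.17 by edgeR (SE 0.046, adjusted p = 0.0106), was also lost there, at 0.092 (adjusted p = 0.202).

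PHYD, the near copy of PHYB, was the least abundant receptor transcript per length in each group. It had 14.1, 17.4 and 16.2 CPM at 29 °C against 17.5, 17.7 and 17.3 CPM at 22 °C in the libraries labelled rve5-2, and 15.8, 15.4 and 15.7 CPM against 16.7, 19.95 and 18.9 CPM in WT. All 3 warm WT libraries were below those at 22 °C, whereas replicate 2 of the warm libraries labelled rve5-2 overlapped. The averaged log2 fold change of -0.19 (SE 0.067, adjusted p = 0.0385) was called, but 10 of 12 fits without 1 library lost it. The 2 that kept it left out rve5-2 at 29 °C replicate 2 or WT at 22 °C replicate 1, and the highest adjusted p, 0.0892, came without rve5-2 at 29 °C replicate 1. Within genotypes the changes were -0.14 (adjusted p = 0.305) in libraries labelled rve5-2 and -0.24 (adjusted p = 0.0984) in WT.

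PHYE, a light-stable phytochrome that acts beside PHYB in restraining flowering and internode growth, had 37.4, 36.8 and 33.9 CPM at 29 °C against 31.9, 34.6 and 28.1 CPM at 22 °C in the libraries labelled rve5-2. In WT it had 38.9, 35.2 and 32.5 CPM against 28.3, 27.7 and 29.5 CPM. The WT temperatures did not overlap, with a log2 fold change of 0.32 (SE 0.090, adjusted p = 0.0332), or 1.25-fold. The WT call was lost without WT at 22 °C replicate 1 (adjusted p = 0.0852), 2 (0.0935) or 3 (0.0699), or without WT at 29 °C replicate 1 (0.11) or 2 (0.0652), and in limma on log2(FPKM + 1) (0.074). In the libraries labelled rve5-2 the change was 0.19 (SE 0.090, adjusted p = 0.137) and not called. The averaged change, 0.26 (SE 0.064, adjusted p = 0.00786), was kept in all 12 fits that left out 1 library. ML3, which overlaps PHYE, had a WT change of 0.24 (adjusted p = 0.107) and an averaged change of 0.14 (adjusted p = 0.114). The share of shared reads in the PHYE count was not tested.

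Within the summed phytochrome FPKM these differences appeared as shifts of a few percent. PHYA made up 27.4 ± 0.88% at 29 °C against 31.2 ± 0.47% at 22 °C in the libraries labelled rve5-2, and 27.3 ± 2.39% against 30.9 ± 1.17% in WT (SD, n = 3 each). PHYC had 18.8 ± 0.84% against 15.7 ± 0.17% in the libraries labelled rve5-2 and 18.5 ± 0.49% against 17.3 ± 0.93% in WT. For PHYE the shares were 16.3 ± 0.46% at 29 °C against 14.6 ± 1.08% at 22 °C in the libraries labelled rve5-2, and 17.5 ± 1.81% against 13.6 ± 0.12% in WT. The shares of PHYA were lower in every warm library than in any library at 22 °C of the same genotype, and those of PHYE higher. PHYB held 28.6 to 30.2% in all 4 groups. The summed level was 55.8 ± 1.03 FPKM against 58.6 ± 1.41 FPKM in the libraries labelled rve5-2 and 55.0 ± 4.72 FPKM against 58.3 ± 1.25 FPKM in WT. On log2(FPKM + 1) the median warm change of all tested genes was -0.077 in the libraries labelled rve5-2 and -0.032 in WT. By edgeR it was -0.005 and 0.002, so the lower sums cannot be told apart from that shift of the FPKM scale.

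**Figure D3:**
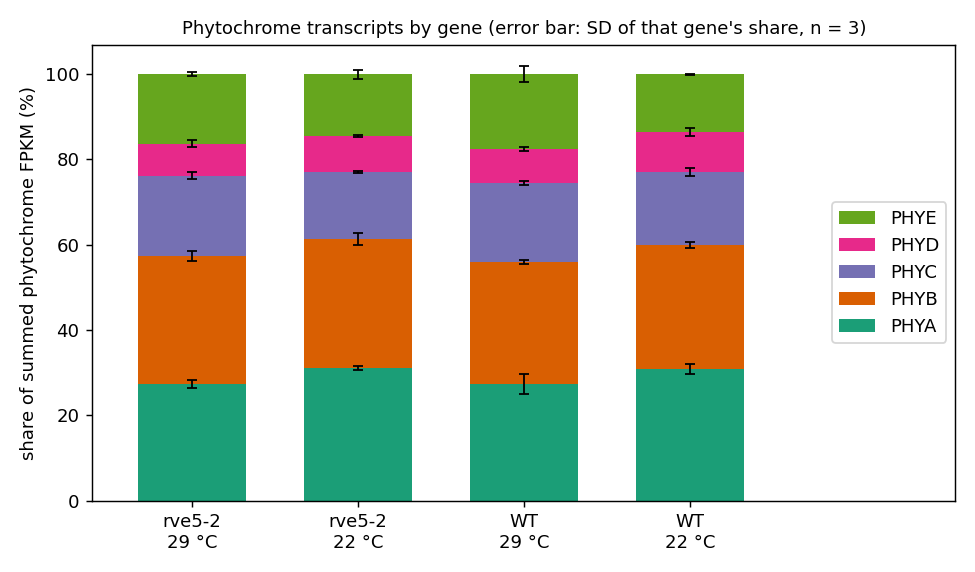
Share of each phytochrome gene in the summed phytochrome FPKM (%), as stacked means of 3 libraries in each group, with an error bar for the SD of that gene's share. PHYA is the smaller slice at 29 °C in both genotypes, and PHYC and PHYE the larger ones.

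CRY1, the cryptochrome that restrains hypocotyl growth in strong blue light, was higher at 29 °C in the libraries labelled rve5-2, with 113.6, 98.1 and 98.3 CPM against 85.0, 83.9 and 82.6 CPM at 22 °C. WT had 100.2, 79.6 and 82.7 CPM at 29 °C against 78.2, 77.8 and 77.9 CPM at 22 °C. The temperatures did not overlap in either genotype, though in WT most of the gap came from replicate 1. The log2 fold change was 0.30 (SE 0.088, adjusted p = 0.0246), or 1.23-fold, in libraries labelled rve5-2, 0.17 (SE 0.088, adjusted p = 0.216) in WT and 0.23 (SE 0.062, adjusted p = 0.0105) averaged. The call in the libraries labelled rve5-2 was lost without rve5-2 at 22 °C replicate 1 (adjusted p = 0.0575), 2 (0.0618) or 3 (0.071), or without rve5-2 at 29 °C replicate 1 (0.109). The averaged call was kept in all 12 such fits.

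CRY1 also depended on 1 WT library in the comparison of genotypes. At 29 °C it was 0.24 higher on the log2 scale in the libraries labelled rve5-2 (SE 0.088, adjusted p = 0.421), which was not called. Without WT at 29 °C replicate 1, the library with the lowest root score, this became 0.35 (adjusted p = 0.0282), and the difference over both temperatures 0.23 (adjusted p = 0.0312). Without that library the genes called overall numbered 558 at 29 °C, beside 102 with it, and 571 over both temperatures, beside 150. At 22 °C the genotypes did not overlap, as in 14.4% of all tested genes, and the difference was 0.10 (SE 0.088, adjusted p = 0.923). CRY2, the light-labile cryptochrome known for flowering, ranged from 77.5 to 100.7 CPM over all libraries, and every pair of groups overlapped. Its averaged temperature change was 0.010 (95% interval -0.131 to 0.151, adjusted p = 0.919). CRY1 made up 53.3 ± 1.78% of the summed cryptochrome FPKM at 29 °C against 47.4 ± 1.95% at 22 °C in the libraries labelled rve5-2, without overlap, and 49.4 ± 1.64% against 47.7 ± 1.71% in WT, where libraries overlapped (SD, n = 3 each).

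PHOT1, the high-affinity phototropin, had the widest spread over single libraries, its highest value being 1.64 times its lowest. It had 185.7, 180.4 and 211.8 CPM at 29 °C against 198.8, 212.3 and 162.9 CPM at 22 °C in the libraries labelled rve5-2, and 194.4, 168.7 and 160.3 CPM against 167.0, 129.2 and 166.4 CPM in WT. The temperatures overlapped in both genotypes. Its averaged temperature change was 0.094 (SE 0.088, adjusted p = 0.422). The genotype difference was 0.31 at 22 °C (SE 0.124, adjusted p = 0.698) and 0.14 at 29 °C (SE 0.124, adjusted p = 0.871), with intervals of 0.041 to 0.581 and -0.127 to 0.412.

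PHOT2, the phototropin that serves in strong light and drives chloroplast avoidance, had 287.6, 283.7 and 261.1 CPM at 29 °C against 242.1, 233.2 and 210.5 CPM at 22 °C in the libraries labelled rve5-2. WT had 311.7, 238.7 and 232.2 CPM against 226.3, 201.0 and 232.1 CPM, so that the nearest libraries of the 2 temperatures all but met. The change was 0.28 (SE 0.109, adjusted p = 0.0783) in libraries labelled rve5-2 and 0.25 (SE 0.109, adjusted p = 0.143) in WT, neither of them called. Averaged over genotypes, PHOT2 was 0.26 higher at 29 °C (SE 0.077, adjusted p = 0.0176), or 1.2-fold, and kept that call in all 12 fits without 1 library. The change in the libraries labelled rve5-2 was called without WT at 29 °C replicate 1 (adjusted p = 0.0121), which had the highest PHOT2 level of all 12 libraries. The part of reads from AT5G58150 in these values was not tested.

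UVR8 had 147.9, 143.8 and 149.0 CPM at 29 °C against 150.0, 155.2 and 140.0 CPM at 22 °C in the libraries labelled rve5-2, and 170.6, 142.7 and 145.4 CPM against 138.6, 124.3 and 133.0 CPM in WT. The temperatures did not overlap in WT and did in the libraries labelled rve5-2. The temperature change was -0.015 (SE 0.078, adjusted p = 0.913) in libraries labelled rve5-2 and 0.21 (SE 0.078, adjusted p = 0.085) in WT, and quantile normalization brought the WT change to a call at 0.21 (adjusted p = 0.0356). The difference between the responses was -0.23 (95% interval -0.468 to 0.014, adjusted p = 0.981). At 22 °C the genotypes did not overlap, as in 14.4% of all tested genes, at a difference of 0.17 (SE 0.078, adjusted p = 0.784).

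None of the 10 genes was called between genotypes. In the libraries labelled rve5-2 against WT, 0.466% of all tested genes were called at 29 °C (0.32% higher and 0.146% lower) and 0.192% at 22 °C (0.137% higher and 0.0549% lower). The share was 0.686% (0.53% higher and 0.155% lower) over both temperatures, a second contrast added after the data were seen. At an unadjusted p under 0.05 stood 2 receptor genes at 29 °C, PHYB and CRY1, 1 at 22 °C, PHOT1, and those 3 over both temperatures. Of all 21870 tested genes, 1838 did so at 29 °C, 1397 at 22 °C and 2074 over both temperatures. DESeq2 called none either. Libraries did not overlap between genotypes for 2 receptor genes at 29 °C, PHYB and PHYC, and 3 at 22 °C, PHYB, CRY1 and UVR8. Of all tested genes, 11.6% were so separated at 29 °C and 14.4% at 22 °C. The sign was positive for 9 of the 10 genes at 29 °C, with UVR8 the exception, and for 8 at 22 °C, with PHYC and PHYD the exceptions, and the members' median was 0.104 and 0.105 beside -0.007 and -0.003 over all tested genes. The mean log2 CPM of the 8 green tissue markers was also higher in the libraries labelled rve5-2, though their summed CPM overlapped. It was 12.077 to 12.245 against 11.455 to 11.877 at 29 °C, and 11.483 to 11.623 against 11.169 to 11.295 at 22 °C. Of these markers 2 were called higher at 29 °C and 1 at 22 °C. The part of tissue make-up in the signs was not tested. The 95% intervals ran between -0.228 and 0.43 at 29 °C and between -0.284 and 0.581 at 22 °C. No interaction was called by edgeR for any tested gene (0%). At an unadjusted p under 0.05 it had 1070 genes, PHYC among them as the 1 receptor gene, and DESeq2 called 44 genes, none of them a receptor gene. The intervals of the interaction ran between -0.55 and 0.431, which is the size of difference in response that these libraries leave possible. The comparisons share libraries: each group enters both a temperature and a genotype contrast.

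**Figure D4:**
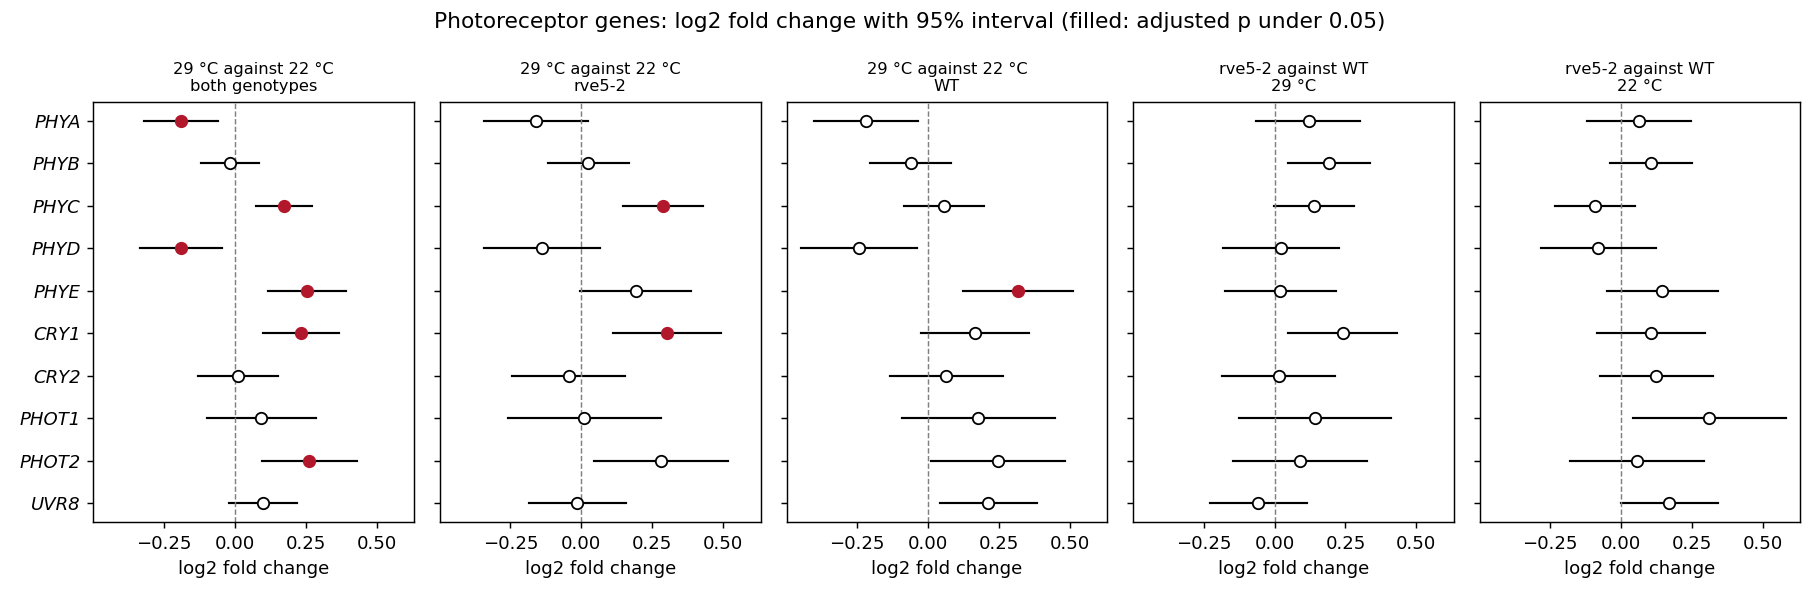
Log2 fold change of each receptor gene with its 95% interval in 5 contrasts, filled where the adjusted p was under 0.05. Filled points appear for temperature only, 6 in the averaged contrast, 2 in the libraries labelled rve5-2 and 1 in WT, and the genotype panels hold none.

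For the 3 receptor genes with the widest range of group means, the genes with the most similar profile were sought among 2246 genes with a symbol in the table and a mean of at least 5 CPM. Likeness was the root mean square difference of centred log2 CPM over the 12 libraries, as a description. CRY1 was nearest to CHLM (AT4G25080), a methyltransferase of chlorophyll synthesis, at 0.055, and to AMK2 (AT5G47840), an adenylate kinase, at 0.069, beside a median of 0.232 over all genes compared. PHOT2 was nearest to EMB1030 (AT5G22800) at 0.034 and to SBPASE (AT3G55800), an enzyme of the Calvin cycle, at 0.043, beside 0.238. PHYE was nearest to RSR4 (AT5G01410), an enzyme of vitamin B6 synthesis, at 0.056 and to POLGAMMA2 (AT1G50840), an organellar DNA polymerase, at 0.060, beside 0.225.

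Of 9 genes for the phytochrome chromophore and nuclear import, 8 were tested, and none was called for temperature in the libraries labelled rve5-2 and 1 in WT. This was FAR1 (AT4G15090), a transcription factor that drives genes for PHYA nuclear import, with 29.7 ± 0.321 CPM at 29 °C against 22.5 ± 3.32 CPM at 22 °C in WT (log2 fold change 0.40, SE 0.095, adjusted p = 0.0159; 0.0561 in limma on log2(FPKM + 1)). In the libraries labelled rve5-2 it had 0.14 (SE 0.095, adjusted p = 0.288). Among 19 phytochrome partners, 4 were higher and 2 lower at 29 °C in the libraries labelled rve5-2, and 5 higher and 2 lower in WT, beside 26% and 15.5% of all tested genes called in either direction. PIF4 (AT2G43010), the transcription factor central to growth in warmth, had 81.6 ± 5.81 CPM at 29 °C against 41.6 ± 5.71 CPM at 22 °C in the libraries labelled rve5-2, and 47.0 ± 8.16 CPM against 21.2 ± 2.93 CPM in WT. These are log2 fold changes of 0.97 (SE 0.138, adjusted p = 0.000575) and 1.15 (SE 0.139, adjusted p = 0.00051). Its relative PIF5 (AT3G59060) rose by 1.31 (SE 0.177, adjusted p = 0.000432) in libraries labelled rve5-2 and 1.35 (SE 0.179, adjusted p = 0.000843) in WT. UNE10 (AT4G00050), a bHLH factor, rose by 0.67 (SE 0.115, adjusted p = 0.00174) in libraries labelled rve5-2 and by 0.41 (SE 0.115, adjusted p = 0.0307) in WT, where 4 of 12 fits without 1 library, those without any 1 WT library at 22 °C or without WT at 29 °C replicate 1, lost the call (adjusted p up to 0.095). VOZ1 (AT1G28520), a phytochrome-binding factor of flowering, changed by -0.49 (SE 0.097, adjusted p = 0.00376) in libraries labelled rve5-2 and by -0.44 (SE 0.097, adjusted p = 0.0107) in WT. The WT count of 7 became 3 without WT at 22 °C replicate 1 or 3 and 4 without WT at 22 °C replicate 2 or WT at 29 °C replicate 1.

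PIF4 was also the 1 of 19 phytochrome partners called between genotypes. Of all tested genes, 0.466% were called between genotypes at 29 °C and 0.192% at 22 °C. It was higher in the libraries labelled rve5-2 by a log2 fold change of 0.79 at 29 °C (SE 0.137, adjusted p = 0.0228) and of 0.98 at 22 °C (SE 0.139, adjusted p = 0.0098). The call at 29 °C was lost without WT at 29 °C replicate 2 (adjusted p = 0.135) or 3 (0.112) and without each library labelled rve5-2 at 29 °C (0.104, 0.0605 and 0.0705). The call at 22 °C was lost without WT at 22 °C replicate 2 (0.0621) or 3 (0.0593) or rve5-2 at 22 °C replicate 1 (0.0643). The count of phytochrome partners called between genotypes was 3 at 29 °C without WT at 29 °C replicate 1, beside 558 of all tested genes. At 22 °C it was 2 without WT at 29 °C replicate 3, beside 42 of all tested genes. DESeq2 called 2 at each temperature, beside 345 of all tested genes at 29 °C and 143 at 22 °C. PKS2 (AT1G14280), of the phytochrome kinase substrate family that acts in bending growth, was the 1 of 20 phototropin partners called at 29 °C. Its difference was 0.89 (SE 0.087, adjusted p = 0.000339), and it kept that call in all 12 fits without 1 library. The count of phototropin partners called became 2 without WT at 29 °C replicate 1 or rve5-2 at 29 °C replicate 2.

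Of 20 phototropin partners, 5 were higher and 1 lower at 29 °C in the libraries labelled rve5-2, and 3 higher in WT, beside the same 26% and 15.5% of all tested genes. PKS2 had 30.5 ± 1.09 CPM at 29 °C against 12.4 ± 0.33 CPM at 22 °C in the libraries labelled rve5-2 and 16.4 ± 1.60 CPM against 11.5 ± 0.631 CPM in WT, with log2 fold changes of 1.3 (adjusted p = 5.4e-06) and 0.51 (adjusted p = 0.00316). JAC1 (AT1G75100), needed for chloroplast accumulation in weak light, had 24.4 ± 5.47 CPM at 29 °C against 8.22 ± 0.933 CPM at 22 °C in the libraries labelled rve5-2 and 15.4 ± 3.51 CPM against 8.00 ± 1.44 CPM in WT, changes of 1.57 (adjusted p = 0.000301) and 0.95 (adjusted p = 0.00849). The locus AT1G64500 rose by 1.34 (adjusted p = 8.05e-05) in libraries labelled rve5-2 and 0.83 (adjusted p = 0.0026) in WT. The count of 6 in the libraries labelled rve5-2 became 3 without replicate 1 at 22 °C or at 29 °C.

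Of 11 cryptochrome partners, 2 were lower at 29 °C in the libraries labelled rve5-2 and 3 in WT, with none higher, while 13% and 7.41% of all tested genes were lower. The locus AT3G52740 had 10.9 ± 2.31 CPM at 29 °C against 18.2 ± 1.40 CPM at 22 °C in the libraries labelled rve5-2 and 11.3 ± 1.94 CPM against 21.5 ± 1.53 CPM in WT, changes of -0.73 (adjusted p = 0.005) and -0.93 (adjusted p = 0.00261). AT5G48560 changed by -1.40 in both (adjusted p = 0.012 and 0.0184). Its calls were lost without rve5-2 at 29 °C replicate 1 (0.053) and without WT at 22 °C replicate 3 (0.059). AT1G10120 had a value of 0.12 in libraries labelled rve5-2 (adjusted p = 0.244), changed by -0.26 in WT (adjusted p = 0.0302) and lost the call in 5 of 12 fits without 1 library, with adjusted p up to 0.0911. The count in the libraries labelled rve5-2 became 1 lower without rve5-2 at 29 °C replicate 1, and 2 higher and 2 lower without WT at 29 °C replicate 1. The fits that lost AT1G10120 left out WT at 22 °C replicate 1 or 2, WT at 29 °C replicate 1 or 3, or rve5-2 at 22 °C replicate 1.

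The UVR8 list of 15 partners and targets had 4 lower members at 29 °C in the libraries labelled rve5-2 and 5 in WT, none higher, with median log2 fold changes of -0.71 and -0.94. Of all tested genes 13% and 7.41% were lower. UGT84A1 (AT4G15480), a glucosyltransferase of sinapate ester synthesis, had 1.15 ± 0.466 CPM against 4.19 ± 0.751 CPM in the libraries labelled rve5-2 and 2.04 ± 0.64 CPM against 9.19 ± 0.965 CPM in WT, changes of -1.87 (adjusted p = 0.00174) and -2.17 (adjusted p = 0.00145). Of the early light-induced proteins, ELIP1 (AT3G22840) had -0.71 in libraries labelled rve5-2 (adjusted p = 0.0623) and changed by -1.34 in WT (adjusted p = 0.00591). ELIP2 (AT4G14690) changed by -1.29 in libraries labelled rve5-2 (adjusted p = 0.0443), a call that 8 of 12 fits without 1 library lost (adjusted p up to 0.136), among them each fit without a library labelled rve5-2 and those without WT at 22 °C replicate 3 or WT at 29 °C replicate 3. In WT it changed by -1.77 (adjusted p = 0.0177), lost without WT at 22 °C replicate 2 (0.0743). In the libraries labelled rve5-2 CHS (AT5G13930), the entry enzyme of flavonoid synthesis, had 155.2 ± 6.43 CPM against 405.2 ± 55.5 CPM, a change of -1.39 (adjusted p = 0.00587). Its WT change of -1.20 (adjusted p = 0.0183) lost its call without WT at 22 °C replicate 3 (0.0531). MYB12 (AT2G47460), which activates flavonol genes, changed by -1.498 (adjusted p = 0.0427) in libraries labelled rve5-2, with -1.1 (adjusted p = 0.143) in WT, and 10 of 12 fits without 1 library lost the call in the libraries labelled rve5-2 (adjusted p up to 0.142). The exceptions left out WT at 29 °C replicate 1 or 3. Without WT at 29 °C replicate 1, a warm library of the other genotype, the count in the libraries labelled rve5-2 was 8, and it was 2 without any 1 of the 6 libraries labelled rve5-2 or WT at 22 °C replicate 3. In WT it was 3 without WT at 22 °C replicate 2 or 3.

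Of 7 relatives of the receptors, 4 were lower at 29 °C in the libraries labelled rve5-2 and 2 in WT, none higher, beside the same 13% and 7.41% of all tested genes. The photolyase PHR1 (AT1G12370), which repairs ultraviolet damage in DNA, had 7.95 ± 0.537 CPM against 11.4 ± 1.37 CPM in the libraries labelled rve5-2 and 9.11 ± 0.593 CPM against 13.3 ± 0.682 CPM in WT, changes of -0.52 (adjusted p = 0.00605) and -0.55 (adjusted p = 0.00815). The photolyase UVR3 (AT3G15620) changed by -0.87 (adjusted p = 0.0182) and the clock-related blue light receptor FKF1 (AT1G68050) by -0.39 (adjusted p = 0.0152) in libraries labelled rve5-2. In WT these had -0.64 (adjusted p = 0.0809) and 0.25 (adjusted p = 0.116). CRY3 (AT5G24850), a cryptochrome of organelles, changed by -0.46 (adjusted p = 0.0193) in libraries labelled rve5-2 and by -0.50 (adjusted p = 0.02) in WT. UVR3 lost its call without replicate 1 of rve5-2 at 22 °C (0.0857) or 29 °C (0.0721), and FKF1 without rve5-2 at 29 °C replicate 1 (0.0526) or 2 (0.0603). CRY3 lost its call in the libraries labelled rve5-2 without replicate 1 at 22 °C or replicate 1 or 3 at 29 °C (adjusted p up to 0.0794), and in WT without WT at 22 °C replicate 2 (0.0724) or 3 (0.0524) or WT at 29 °C replicate 1 (0.0617) or 3 (0.0554). These lists stand beside root markers, of which 9 of 14 were lower in the libraries labelled rve5-2 and 10 in WT, and green tissue markers, of which 3 of 8 and 2 were higher (7 in the libraries labelled rve5-2 without WT at 29 °C replicate 1, and 0 in WT without WT at 22 °C replicate 2). Without 1 library the counts of relatives ran 1 to 4 in the libraries labelled rve5-2, lowest without rve5-2 at 29 °C replicate 1, and 1 to 3 in WT, lowest without the 4 libraries that ended the WT call of CRY3. The part of tissue make-up in the list values was not tested.

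**Figure D5:**
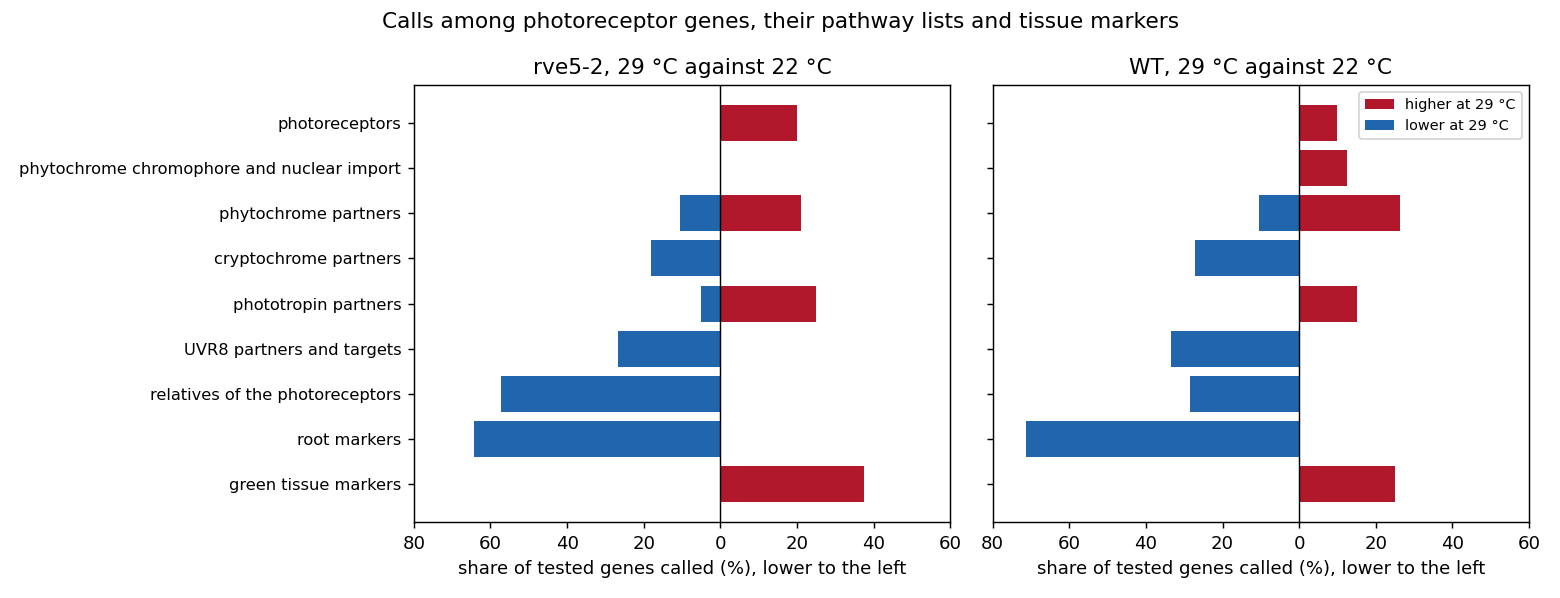
Share of tested genes in each list called higher (right) or lower (left) at 29 °C, in %, for the libraries labelled rve5-2 and for WT. Calls among UVR8 and cryptochrome partners, relatives and root markers lie to the left only, and those among phytochrome and phototropin partners mostly to the right.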

How the data were processed

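The deposited table gives a whole-number count and an FPKM value per gene and library, per the file headers, and was mapped to the 12 libraries by column name. Per the submitters' processing notes, cutadapt 1.9, HISAT2 2.0.4, StringTie 1.3.4d and edgeR were used with TAIR10. Which of them made which column is not given in the sources used here. The authors computed the FPKM values, per the file headers, and they were used for levels between genes and in an alternative fit. Per the labels' protocols, Trizol RNA went into an Illumina TruSeq kit. No value column was left unmapped, and no pair of libraries held identical values.

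Counts were fitted in R 4.3.3 with edgeR 4.0.16: filterByExpr with its minimum count of 10 (21870 genes kept), TMM scaling, a quasi-likelihood fit of the 4 group means to all 12 libraries, and Benjamini-Hochberg adjustment over all tested genes. The SE is the size of the log2 fold change divided by the root of the F statistic. The 5 planned contrasts were joined by the 2 averages. The receptor genes, partner lists and contrasts were chosen with earlier results of these data known. Named besides the 10 receptor genes and RVE5 were up to 3 called members per list and contrast with the smallest adjusted p, and the 2 genes most like each of 3 receptor genes. On simulated counts for WT at 29 °C against 22 °C (21870 genes), 26% of genes changed 1.5-fold and 55% of those changed 2-fold were recovered, with 8 false calls among 89. The labels state no pairing by replicate number, and the main fit used none. Between the genotypes at 29 °C, libraries of the same number correlated at 0.188, 0.012 and 0.21 (deviations from group means). A shared batch was not tested. Alternatives were run with limma 3.58.1 and DESeq2 1.42.0. Promoters and coding sequences came from RefSeq on TAIR10.1. Positions used here are those of that annotation.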

Additional observations from a re-analysis of the deposited data

How the results depend on the processing

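The 7 counts of receptor genes and the 70 values of the 10 genes were recomputed under 10 other settings and in 12 fits that each left out 1 library. Median-of-ratios scaling, no filter on low counts and counts divided by 4 changed no call. For warmth in WT, the count of 1 became 0 in limma on log2(FPKM + 1) and log2(FPKM + 0.1), in a fit of only the 2 groups compared and in the fit that adds the root score, and 2 under quantile normalization. In the libraries labelled rve5-2 the count of 2 became 1 in both FPKM fits and 0 with the root score, and the averaged count of 6 became 0 with it. Without 1 library these counts ran 0 to 1 in WT, 1 to 3 in the libraries labelled rve5-2 and 4 to 6 averaged. The genotype counts ran 0 to 0 at 22 °C, 0 to 1 at 29 °C and 0 to 1 over both temperatures, and the interaction 0 to 0. Libraries of the same replicate number in different groups correlated at -0.025 to 0.21, with 3 of 18 pairs over 0.1. With the replicate block, 1 gene was called in WT and 3 in the libraries labelled rve5-2, where PHOT2 had an adjusted p of 0.0451. PHOT2 also passed there in DESeq2 (0.0495), in the fit of only 2 groups (0.0171) and under quantile normalization (0.0313).

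Directions turned in 61 recomputed values of receptor genes and named list genes, 6 of them called ones, all with the root score. These were PHYA, CRY1 and PHOT2 averaged over genotypes, and MYB12, CHS and AT5G48560 in the libraries labelled rve5-2. At pseudocounts of 1 and 0.1, FPKM turned the averaged genotype values of UVR8 (-0.010 and -0.010) and PHYC (-0.040 and -0.044) and the averaged warm value of CRY2 (-0.060 and -0.062). It also turned the interaction of PHOT2 (-0.012 and -0.012), the genotype values at 29 °C of CRY2 (-0.075 and -0.077), PHYE (-0.067 and -0.073) and PHYD (-0.061 and -0.075), and the warm values in the libraries labelled rve5-2 of PHOT1 (-0.083 and -0.085) and PHYB (-0.072 and -0.076). Quantile normalization turned CRY2 at 29 °C (-0.004). With the root score the averaged warm values were -0.143 for CRY2, -0.050 for CRY1, 0.102 for PHYA, -0.087 for PHOT2 and -0.085 for UVR8. In the libraries labelled rve5-2 they were 0.883 for MYB12, 0.033 for CHS, 0.128 for AT5G48560, -0.066 for PHOT2, -0.025 for PHYE, 0.135 for PHYA and -0.030 for PHOT1, and in WT -0.108 for PHOT2, 0.068 for PHYA, -0.090 for CRY2 and -0.119 for CRY1. The score moves with temperature, and with it 64 of all genes were called in the averaged contrast.

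Leaving out 1 library turned uncalled values within these ranges. Warm values averaged over genotypes ran -0.034 to 0.06 for CRY2 and -0.042 to 0.006 for PHYB, in WT -0.023 to 0.135 for CRY2, and in the libraries labelled rve5-2 -0.107 to 0.042 for CRY2, -0.055 to 0.019 for UVR8, -0.094 to 0.091 for PHOT1 and -0.018 to 0.073 for PHYB. Genotype values at 29 °C ran -0.105 to 0.028 for UVR8, -0.041 to 0.09 for PHYE, -0.056 to 0.102 for CRY2 and -0.045 to 0.104 for PHYD, at 22 °C -0.004 to 0.113 for PHOT2, and averaged -0.063 to 0.012 for PHYD. The interaction ran -0.045 to 0.18 for PHOT2 and -0.027 to 0.149 for PHYA. In limma on log2(FPKM + 0.1) the median of all genes for warmth in the libraries labelled rve5-2 shifted to -0.102. In limma on log2(FPKM + 1), 1949 genes were called higher and 3923 lower there, beside 2848 and 2848 by edgeR. In WT that split was 1469 and 2110 beside 1767 and 1620, and averaged 3111 and 5581 beside 4180 and 4265. The causes of these changes were not tested. The lowest count of a receptor gene in any library was 1087 (PHYD), on the scale where low counts pile up at multiples of 3.78.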
